A study of Caenorhabditis elegans with 10 samples.

Results

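In all, 9 genes of iron storage, metal binding and metal transport were followed through recovery from larval arrest in Caenorhabditis elegans, of 44968 genes in the authors' FPKM table. They were chosen by gene identity, with earlier results of these libraries in view, including the falls of ftn-1 and mtl-1 within 1 h of feeding. For these genes the comparisons with starved larvae, and the step from 1 h to 3 h, which shares the 1 h libraries, are therefore descriptions and carry no p-value. The step from 3 h to 6 h is the difference between the comparisons of 6 h and of 3 h with starved larvae. Its p-values below are thus also a description and no independent test. The 9 genes are ftn-1 and ftn-2, which encode ferritin, smf-1, smf-2 and smf-3, which encode metal importers, mtl-1 and mtl-2, which encode metallothioneins, ttm-1, which encodes a zinc exporter, and cdr-1, a cadmium-responsive gene. Of these, 8 were counted by exonic bin, out of 13374 counted gene units in all, and all 8 passed the filter on low counts. The ninth, smf-2, was measured as pooled FPKM only.

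Whole N2 larvae, the wild-type laboratory strain, were hatched from bleached embryos without food. The embryos spent 24 h at 20 °C without food, the last 12 h or so arrested in the first larval stage (L1), the developmental pause of larvae that hatch into an environment without food. Starved larvae were sampled at that point (n = 3), and larvae given Escherichia coli HB101 at 25 mg/mL were sampled after 1 h (n = 2), 3 h (n = 2) and 6 h (n = 3). All 4 groups share the strain, the bleaching and the arrest. No unfed library of the same age was analysed here, so feeding and elapsed time cannot be told apart. Because RNA came from whole animals, fewer cells of a type and less RNA per cell cannot be told apart either.

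Ferritin forms a hollow shell that stores iron in a form that does no oxidative damage, and in this worm both ferritin genes are active in the intestine. Under low iron the worm is known to repress ftn-1 and ftn-2 and to activate smf-3 through the hypoxia factor HIF-1, so storage and uptake are regulated in opposite directions. The SMF proteins belong to the NRAMP family, the relatives of mammalian DMT1, and carry ferrous iron, manganese and other divalent metals into cells. Metallothioneins are small cysteine-rich proteins that bind zinc, copper and cadmium, and mtl-1 and ftn-1 are known targets of DAF-16, the transcription factor that insulin signalling restrains. TTM-1 belongs to the cation diffusion facilitator (CDF) family, whose members move zinc out of the cytosol.

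Summed counts ranged from 19163997 to 38607167 per library. Levels are given below as CPM, read counts relative to the library size scaled by TMM factors, and, where genes are compared with each other, as CPM per kilobase of exonic bins (RPKM). Of the 8 intestinal markers examined, 8 were measured and none was at 0 in any group, so intestinal RNA was present throughout. Their summed level was 1826 to 2151 CPM in starved larvae, 1734 to 1888 at 1 h, 2336 to 2399.6 at 3 h and 2172 to 2995 at 6 h. At each time 3 of the 8 rose against starved larvae and 2 fell, and the part of intestinal content in the results below was not tested. The 3 measured body wall muscle markers, of 6 listed, fell at every time, with a summed level of 2662 to 3743 CPM in starved larvae and 1717 to 2051 at 1 h. Of 7 neuronal markers 2, 3 and 5 fell at 1 h, 3 h and 6 h, and of 5 pharyngeal markers 2, 3 and 3, with none rising in either list. Of 2 measured hypodermal markers 1, elt-3, rose at every time, and of 5 germline markers 1 rose at 3 h and at 6 h. The part of these tissues was not tested either.

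The 2 ferritin genes moved in opposite directions within 1 h of feeding. ftn-1 (C54F6.14, chromosome V, 7545952 to 7547993, minus strand, WS210) stood at 71.5, 81.9 and 52.4 CPM in the 3 starved libraries. It stood at 2.29 and 2.2 CPM in the libraries fed for 1 h, at 13.3 and 13.3 at 3 h, and at 47.7, 26.5 and 15.3 at 6 h. Every fed library lay below every starved one, and the deepest point came at 1 h. The group means of 68.6 ± 15 CPM (SD, n = 3) and 2.24 ± 0.0583 (SD, n = 2) differed 30.6-fold. Against starved larvae the log2 fold change was -4.93 ± 0.44 (SE) at 1 h, -2.37 ± 0.37 at 3 h and -1.2 ± 0.30 at 6 h.

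From 1 h to 3 h the log2 fold change of ftn-1 was 2.57 ± 0.43, a 5.94-fold higher level at 3 h. From 3 h to 6 h its log2 fold change was 1.16 ± 0.36, which did not pass the threshold of 0.05 (adjusted p = 0.12, edgeR's quasi-likelihood test with Benjamini-Hochberg adjustment). The 3 libraries fed for 6 h spread from 15.3 to 47.7 CPM. Without the lowest of them, replicate 3, the same step came to 1.48 on the log2 scale and passed (adjusted p = 0.0118), as it did with DESeq2 (1.17, adjusted p = 0.0219), while without the highest, replicate 1, it came to 0.65 (adjusted p = 0.269). All 3 libraries at 6 h lay above both at 3 h.

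ftn-2 (D1037.3, chromosome I, 3680180 to 3680946, minus strand) was the most abundant of the 8 counted genes at every time. Its level was 329.9, 346.1 and 442.5 CPM in starved larvae, 621.3 and 636.7 at 1 h, 748.7 and 846.9 at 3 h, then 845.4, 772.6 and 889.0 at 6 h. No fed library overlapped a starved one. The log2 fold change against starved larvae was 0.75 ± 0.18 at 1 h, 1.1 ± 0.18 at 3 h and 1.16 ± 0.17 at 6 h, and the value at 1 h was 0.42 when only the longest exonic bin was counted. The step from 3 h to 6 h did not pass the threshold (adjusted p = 0.911). In the authors' deposited table ftn-2 stood at 735.5 FPKM in starved larvae and at 1099, 1087 and 1116 FPKM at 1 h, 3 h and 6 h. The authors' interval for starved larvae (341 to 1130 FPKM) overlapped those at 1 h (831 to 1368), 3 h (830 to 1345) and 6 h (686 to 1546).

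**Figure D1:**
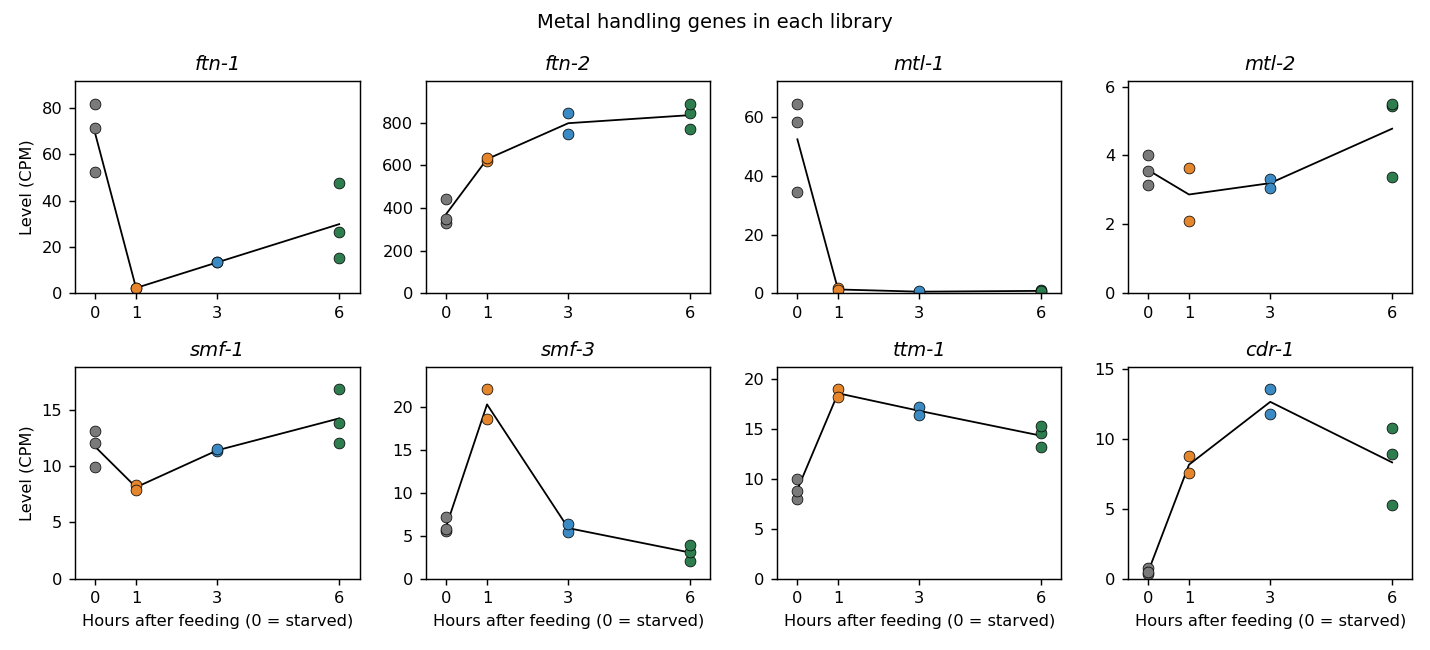
Level in CPM (vertical axis, linear, one scale per gene) of the 8 counted genes in each of the 10 libraries against hours after feeding, with 0 for starved larvae; points are libraries and the line joins group means. ftn-1 and mtl-1 stood at 52.4 CPM or more and 34.6 CPM or more in starved larvae and at most at 2.29 and 1.61 CPM at 1 h, while smf-3 peaked at 1 h.

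The composition of the ferritin message shifted accordingly. Per length, ftn-1 made up 16.1 ± 4.66% (SD, n = 3) of the summed ferritin RPKM in starved larvae, 0.363 ± 0.0156% (n = 2) at 1 h, 1.68 ± 0.144% (n = 2) at 3 h and 3.52 ± 1.86% (n = 3) at 6 h. The summed ferritin level itself was higher in every fed library than in every starved one, at 661.0 RPKM in the starved group, then 942 (1 h), 1211 (3 h) and 1293 (6 h). ftn-2 alone carried that difference, since ftn-1 contributed less at each fed time.

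The 2 metallothionein genes also behaved differently. mtl-1 (K11G9.6, chromosome V, 6691352 to 6691846, minus strand) stood at 58.3, 64.6 and 34.6 CPM in starved larvae. After feeding it stood at 1.61 and 0.909 CPM at 1 h, at 0.328 and 0.681 at 3 h, and at 1.08, 0.509 and 0.747 at 6 h. The starved libraries held 811 to 2667 counts of the gene, and the 7 fed libraries held between 6 and 43. The level was thus 41.7-fold lower at 1 h, 104-fold lower at 3 h and 67.5-fold lower at 6 h, with log2 fold changes of -5.38 ± 0.39, -6.67 ± 0.44 and -6.09 ± 0.35. The step of mtl-1 from 3 h to 6 h did not pass the threshold (adjusted p = 0.672).

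mtl-2 (T08G5.10, chromosome V, 14018251 to 14018622, minus strand) was low in all libraries. Its level was 3.14, 3.56 and 4.01 CPM in starved larvae, 3.63 and 2.1 at 1 h, 3.33 and 3.06 at 3 h, then 5.45, 5.5 and 3.39 at 6 h. The groups overlapped with the starved libraries at every time, and the log2 fold changes were -0.32 ± 0.34, -0.16 ± 0.34 and 0.42 ± 0.30. Per length, mtl-1 made up 91.9 ± 3.48% of the summed metallothionein RPKM in starved larvae but 26.9 ± 0.316% at 1 h, 11.7 ± 5.73% at 3 h and 12.37 ± 4.52% at 6 h. The summed metallothionein level went from 151 RPKM in starved larvae to 12.5, 11.5 and 17.2 RPKM at 1 h, 3 h and 6 h.

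**Figure D2:**
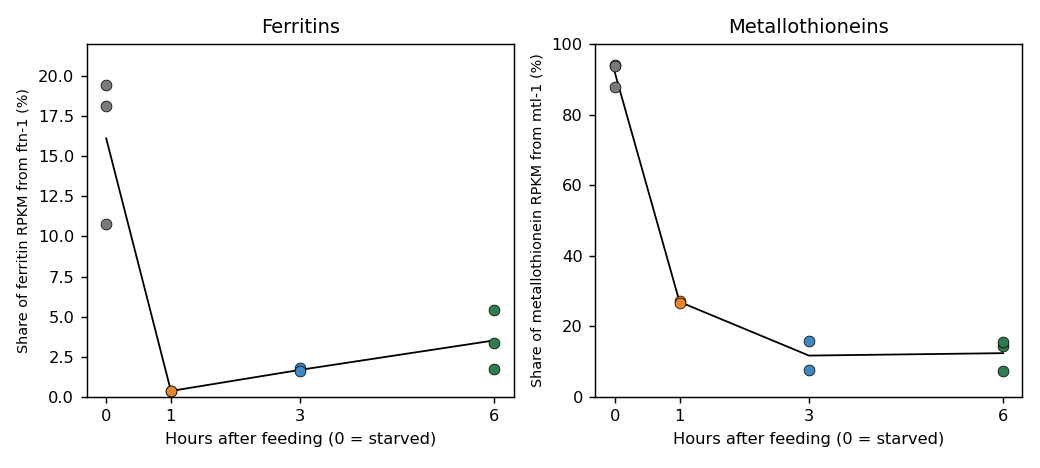
Share of the summed RPKM of a pair of paralogs that came from one of them (vertical axis, %, from 0) against hours after feeding, with ftn-1 within ferritin on the left and mtl-1 within metallothionein on the right; points are libraries and the line joins group means. The starved libraries lie between 10.8% and 19.4% for ftn-1 and between 87.9% and 94.0% for mtl-1, above all fed libraries.

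The importer smf-3 had its highest level at 1 h. smf-3 (Y69A2AR.4, chromosome IV, 2618930 to 2625502, plus strand) encodes an NRAMP importer of the intestinal apical membrane. It stood at 7.24, 5.55 and 5.76 CPM in starved larvae, at 22.1 and 18.6 at 1 h, at 5.46 and 6.37 at 3 h, and at 2.1, 3.1 and 3.98 at 6 h. Both libraries at 1 h were above all others, those at 3 h overlapped the starved ones, and the 3 at 6 h lay below them. The log2 fold change against starved larvae was 1.72 ± 0.26 at 1 h, then -0.06 ± 0.27 at 3 h and -1.01 ± 0.25 at 6 h. The mean at 1 h was 3.29-fold that of starved larvae, and on the longest exonic bin alone the log2 fold change at 1 h was 0.86.

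From 1 h to 3 h the log2 fold change of smf-3 was -1.78 ± 0.30, a 3.44-fold lower level, and with the longest bin alone it was -1.09. The step from 3 h to 6 h was -0.95 ± 0.28 (adjusted p = 0.0959), and it passed without the highest library at 6 h, replicate 3 (-1.18, adjusted p = 0.0473), and with DESeq2 (-0.94, adjusted p = 0.0348). The highest group mean of smf-3 and the lowest of ftn-1 thus fell at the same time, 1 h. The more abundant ferritin gene, ftn-2, was higher at 1 h than in starved larvae (0.75 ± 0.18).

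smf-1 (K11G12.4, chromosome X, 6719624 to 6723023, minus strand), a second NRAMP importer, varied far less. Its level was 12.1, 9.91 and 13.1 CPM in starved larvae, 8.36 and 7.87 at 1 h, 11.3 and 11.5 at 3 h, then 12.1, 13.8 and 16.8 at 6 h. Both libraries at 1 h lay below all others. The log2 fold changes against starved larvae were -0.52 ± 0.21, -0.03 ± 0.21 and 0.29 ± 0.19. The sign changed with the counting and the scaling. The longest exonic bin alone gave 0.62 at 1 h and 0.61 at 3 h, and scaling by library totals gave -0.05 at 6 h. The longest bin, bin 15, held on average 6.89% of the gene's counts in starved larvae, 15.6% at 1 h and 10.8% at 3 h. The third family member, smf-2 (K11G12.3, chromosome X, 6716313 to 6718419, minus strand), lies 1204 bp from smf-1 and overlaps nas-11 on the opposite strand. It stood at 0.224, 0.0960, 0.0604 and 0.0374 FPKM in the authors' deposited table at 0, 1, 3 and 6 h, with every interval of the authors starting at 0, so its level could not be told from absence at this depth. On the same scale smf-3 stood at 3.41 FPKM in starved larvae and 11.2 FPKM at 1 h, and smf-1 at 5.14 and 4.26 FPKM.

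**Figure D3:**
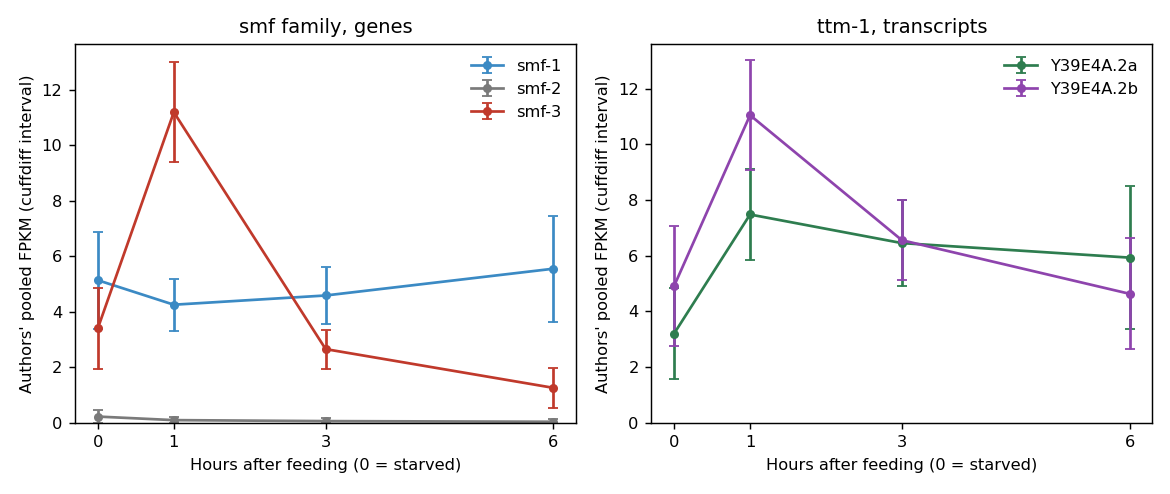
The authors' pooled FPKM (vertical axis, linear from 0) against hours after feeding for the 3 smf genes on the left and the 2 transcripts of ttm-1 on the right; bars are the authors' cuffdiff intervals. smf-3 lies above smf-1 at 1 h only, and the 2 ttm-1 transcripts lie at 7.48 and 11 FPKM at 1 h.

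The zinc exporter ttm-1 (Y39E4A.2, chromosome III, 12952854 to 12966879, minus strand) stood at 8.01, 8.77 and 10.0 CPM in starved larvae, 19 and 18.2 at 1 h, 17.2 and 16.4 at 3 h, then 14.6, 15.3 and 13.1 at 6 h. All fed libraries lay above all starved ones. The log2 fold change was 1.06 ± 0.18 at 1 h, 0.91 ± 0.18 at 3 h and 0.68 ± 0.17 at 6 h, and the value at 6 h was 0.35 when libraries were scaled by their totals alone. The step from 3 h to 6 h did not pass the threshold (adjusted p = 0.621). In the authors' deposited table transcript Y39E4A.2a stood at 3.21, 7.48, 6.45 and 5.93 FPKM at 0, 1, 3 and 6 h, and transcript Y39E4A.2b at 4.91, 11, 6.56 and 4.63 FPKM. Transcript b thus made up 60.5% of the gene's FPKM in starved larvae and 43.8% at 6 h by the authors' deposited values, with intervals of a and b that overlapped at every time.

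The gene with the largest rise of the 8 was cdr-1 (F35E8.11, chromosome V, 15921336 to 15922795, plus strand), named for its induction by cadmium in the intestine. It stood at 0.805, 0.339 and 0.469 CPM in starved larvae, from 11 to 21 counts per library. In fed larvae it stood at 8.77 and 7.55 CPM at 1 h, 13.5 and 11.8 at 3 h, then 5.28, 8.93 and 10.8 at 6 h. The groups did not overlap, and the means were 15.2-fold, 23.5-fold and 15.5-fold those of starved larvae (log2 fold changes of 3.95 ± 0.37, 4.58 ± 0.37 and 3.98 ± 0.36). The step from 3 h to 6 h did not pass the threshold (adjusted p = 0.418). The labels name no added metal.

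**Figure D4:**
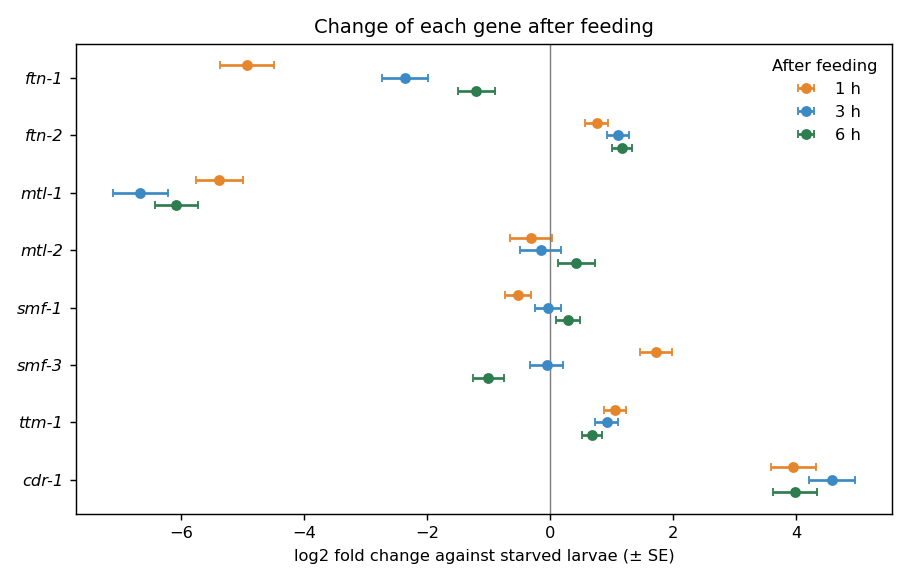
Log2 fold change of each of the 8 counted genes against starved larvae (horizontal axis) at 1 h, 3 h and 6 h; points are edgeR estimates and bars are ± 1 SE. ftn-1 and mtl-1 lie below 0 at each time and ftn-2, ttm-1 and cdr-1 above it, while smf-3 goes from 1.72 to -1.01.

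Counted over the 8 genes, 4 were higher and 2 lower past the threshold at 1 h, where 20.4% of all 13226 tested units were higher and 18.7% lower. At 3 h 3 were higher and 2 lower (21.9% and 19.7% of all units), and at 6 h 3 were higher and 3 lower (27% and 25% of all units). From 1 h to 3 h 1 gene, ftn-1, was higher and 1, smf-3, lower, against 4.79% and 4.6% of all units. Nothing is read from these counts, since the genes were selected with the 1 h libraries and the contrasts with starved larvae known. Scaling by library totals changed the split of all units, to 15.2% higher and 27% lower at 3 h and to 17.7% and 37.5% at 6 h. From 3 h to 6 h edgeR called 0 of the 8, against 2.1% higher and 0.665% lower of all units, with 2 at an unadjusted p under 0.05 (ftn-1 and smf-3), and DESeq2 called 2. This step too is given as a description.

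Relative use of exonic bins, which the choice of the genes did not use, gave no call. edgeR's diffSpliceDGE with Simes' method called 0 of the 8 genes at any time, and 0 had an unadjusted p under 0.05, the smallest being 0.261 for ftn-2 at 1 h. Among single bins, bin 15 of smf-1 at 1 h had the smallest unadjusted p by diffSpliceDGE (0.0207, log2 fold change 0.80), and it was not called. Of the 8, only smf-1 (3) and ttm-1 (2) have more than 1 annotated transcript. Some bins held few reads, such as bin 2 of mtl-1 with a summed count of 3 at 3 h, so a change there could be missed. Over all 11772 genes tested this way, 0.374% were called at 1 h, 0.195% at 3 h and 0.552% at 6 h.

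Per length, the order of the genes changed with feeding. In starved larvae ftn-2 (557 RPKM) was followed by mtl-1 (140.0) and ftn-1 (104), whose libraries overlapped, then by mtl-2 (11.3), then by smf-1 (6.33) and ttm-1 (5.24), which overlapped, and by smf-3 (2.89) and cdr-1 (0.600). At 1 h ftn-2 (939) was followed by ttm-1 (10.9), smf-3 (9.51), cdr-1 (9.11) and mtl-2 (9.10). The libraries of mtl-2 (6.66 and 11.5) spanned those of ttm-1, smf-3 and cdr-1, so mtl-2 was not set apart from them. At the end stood smf-1 (4.4), ftn-1 (3.42) and mtl-1 (3.36), with mtl-1 overlapping smf-1 and ftn-1. At 3 h ftn-1 (20.3) was again second to ftn-2 (1191), followed by cdr-1 (14.1), by mtl-2 (10.1) and ttm-1 (9.86), which overlapped, and by smf-1 (6.17), smf-3 (2.76) and mtl-1 (1.34). At 6 h ftn-2 (1247) and ftn-1 (45.4) led, mtl-2 (15.2), cdr-1 (9.29), ttm-1 (8.4) and smf-1 (7.70) overlapped their neighbours, and mtl-1 (2.07) and smf-3 (1.43), which overlapped, stood last.

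A list of 68 other genes of metal handling, compiled by function but with earlier results of these libraries known, put the 9 genes beside the rest of the pathway, and its counts are no independent support for a direction. Of the 68, 59 were tested and 9 had no single unit in the counts. At 1 h 31 of the 59 rose and 2 fell (52.5% and 3.39%), at 3 h 27 rose and 3 fell (45.8% and 5.08%), and at 6 h 29 rose and 4 fell (49.2% and 6.78%). The shares of all units that rose were 20.4%, 21.9% and 27% at these times and the shares that fell 18.7%, 19.7% and 25%, which is also the background to the counts by function given below. When libraries were scaled by their totals alone, 20 rose and 6 fell at 3 h and 20 rose and 7 fell at 6 h, against 15.2% and 27%, and 17.7% and 37.5%, of all units. When the longest exonic bin alone was counted, 19 were called at 1 h and 18 at 3 h in both directions together, where 27.7% and 30.2% of all units were called. Of these, 1 zinc import gene was lower at 1 h and 1 gene of cadmium response at 3 h, and the rest were higher. Of all units 14.3% were then higher and 13.5% lower at 1 h, and 15.8% and 14.4% at 3 h. Only 5 of the 6 copper genes were tested with the longest bin. The median log2 fold change of the list was 0.75, 0.52 and 0.61, and that of all units was -0.00, -0.02 and -0.04. Under library totals the medians of the list were 0.87, 0.27 and 0.27, beside 0.11, -0.26 and -0.37 for all units. Adjusted p-values of the listed genes are those of edgeR's quasi-likelihood test, over all 13226 units.

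Among the 9 iron genes tested, 4 rose at each time and none fell. These were the ferroportin genes fpn-1.1 and fpn-1.2, whose relatives export iron, aco-1, the homolog of the mammalian iron regulatory protein, and rhy-1, a negative regulator of HIF-1 activity. The rise of fpn-1.2 at 1 h did not pass with the longest bin alone (0.90, adjusted p = 0.121). Under library totals 1 iron gene fell at 3 h and 1 at 6 h (27% and 37.5% of all units). fpn-1.2 stood at 2.4 ± 0.877 CPM (n = 3) in starved larvae and 10.5 ± 4.77 (n = 3) at 6 h (log2 fold change 2.13 ± 0.33, adjusted p = 9.25e-05). rhy-1 went from 5.58 ± 1.94 to 22.2 ± 0.272 CPM at 1 h (2.0 ± 0.30, adjusted p = 0.000108). hif-1 itself stood at 626 CPM in starved larvae and at 516, 650.0 and 633 CPM at 1 h, 3 h and 6 h and passed the threshold at no time (adjusted p = 0.208, 0.828 and 0.936).

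Heme genes gave the widest spread. C. elegans cannot make heme and takes it from its bacterial food, and HRG-4 is the importer of the intestinal apical membrane. hrg-4 stood at 0.679 to 1.34 CPM in starved larvae, 28.3 to 34.8 at 1 h, 8.22 to 15.1 at 3 h and 3.64 to 4.30 at 6 h. It rose by 5.02 ± 0.32 on the log2 scale at 1 h (adjusted p = 4.3e-08), then fell from 1 h to 3 h (-1.44 ± 0.31, adjusted p = 0.00956) and from 3 h to 6 h (-1.51 ± 0.29, adjusted p = 0.00961). With the longest bin alone, hrg-4 did not pass from 3 h to 6 h (-1.33, adjusted p = 0.276). Like that of smf-3, its highest group mean came at 1 h, and at 6 h it was above starved larvae (2.07 ± 0.30, adjusted p = 5.32e-05).

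Of the 8 heme genes, 5 rose at 1 h, with hrg-3, which encodes a secreted heme carrier (3.59 ± 0.81, adjusted p = 0.00281, from a mean of 0.147 to 1.73 CPM), and hrg-6 (2.46 ± 0.47, adjusted p = 0.000844) among them. The rise of hrg-6 did not pass with the longest bin alone (2.2, adjusted p = 0.1), where 3 of the 8 heme genes rose at 1 h (14.3% of all units). hrg-7 rose from 87.8 ± 5.58 to 392.1 ± 4.36 CPM (2.16 ± 0.18, adjusted p = 4.37e-07). hrg-4, hrg-5 and hrg-6 are related neighbours, so reads shared between them are uncertain. hrg-1, the importer of endosomes and lysosomes, fell at 3 h and 6 h (-1.98 ± 0.23 at 6 h, adjusted p = 7.12e-06, but -0.53 and not past the threshold with the longest bin alone, adjusted p = 0.587). hrg-9 fell at 3 h (-1.65 ± 0.46, adjusted p = 0.00967), though not past the threshold with the longest bin alone (-1.66, adjusted p = 0.254). The heme exporter mrp-5 fell at 6 h (-0.54 ± 0.17, adjusted p = 0.0164).

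Of the 4 other CDF genes, 3 rose at 1 h, as ttm-1 was also higher there. With the longest bin alone 2 of the 4 rose at 1 h (14.3% of all units). toc-1 went from 27.3 ± 4.81 to 68.0 ± 1.78 CPM at 1 h and 107.5 ± 4.78 at 6 h (1.98 ± 0.16, adjusted p = 1.52e-07). cdf-2, which stores zinc in gut granules, fell at 1 h (-1.06 ± 0.18, adjusted p = 0.000358) and rose from 1 h to 3 h (1.03 ± 0.20, adjusted p = 0.00494). Neither change of cdf-2 passed with the longest bin alone (-0.75, adjusted p = 0.174, and 0.25, adjusted p = 0.848). The ZIP list of 15 genes held importers, whose family carries zinc into the cytosol, and hizr-1, which encodes a nuclear receptor and no importer. Of the 15, 5 rose and 1 fell at 1 h, and 6 and 7 rose at 3 h and 6 h with none falling. With the longest bin alone 3, 3 and 4 rose at 1 h, 3 h and 6 h, where 14.3%, 15.8% and 21.6% of all units rose. zipt-2.3 rose the most, from 1.44 ± 0.358 CPM to 14.2 ± 1.54 at 1 h and 24.0 ± 2.48 at 3 h (4.08 ± 0.24, adjusted p = 2.05e-08), and fell from 3 h to 6 h (-1.24 ± 0.22, adjusted p = 0.00497). Its fall did not pass with the longest bin alone (-1.29, adjusted p = 0.0758). zipt-2.1 was the gene that fell at 1 h (-1.06 ± 0.26, adjusted p = 0.00422).

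All 6 copper genes rose at 3 h and at 6 h, and 5 rose at 1 h. Under library totals 4 and 5 of the 6 passed at 3 h and 6 h. With the longest bin alone 3 and 4 of the 5 tested passed at these times. chca-1, of the family of copper importers, climbed from 1.67 ± 0.482 CPM in starved larvae through 5.86 ± 0.516 and 12.1 ± 2.3 to 21.2 ± 0.376 at 6 h (3.69 ± 0.25, adjusted p = 3.56e-08). The copper-transporting ATPase gene cua-1 and the copper chaperone gene cuc-1 rose at 1 h (1.1 ± 0.18 and 1.11 ± 0.22, adjusted p = 0.000256 and 0.000978).

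Among the 7 other genes of cadmium and heavy metal response, 5 rose at 1 h, 3 rose and 1 fell at 3 h, and 4 rose and 1 fell at 6 h. With the longest bin alone 2 rose at 1 h (14.3% of all units), and under library totals 2 rose at 6 h (17.7%). cdr-7 went from 1.28 ± 0.674 CPM to 17.5 ± 2.66 at 6 h (3.78 ± 0.35, adjusted p = 6.46e-07), where its group mean was highest, while that of cdr-1 was highest at 3 h. cdr-2 stood at 17 to 48.3 CPM in starved larvae and fell at 3 h (-1.61 ± 0.36, adjusted p = 0.00272). cdr-4, cdr-6 and cdr-7 are neighbours in the genome, and reads shared between related copies are uncertain.

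Of the 8 manganese and magnesium genes, 3 rose at 1 h and 1 at each later time. With the longest bin alone 1 rose at 1 h (14.3% of all units) and none at 3 h or 6 h. gtl-2, a magnesium-permeable channel gene, rose at 1 h (1.14 ± 0.22, adjusted p = 0.00077) and fell from 1 h to 3 h (-0.88 ± 0.24, adjusted p = 0.0362). Neither change of gtl-2 passed with the longest bin alone (0.58, adjusted p = 0.207, and -0.73, adjusted p = 0.345). cnnm-3 rose at 3 h (0.69 ± 0.24, adjusted p = 0.0317), though not past the threshold under library totals (0.44, adjusted p = 0.176), and cnnm-4 had a log2 fold change of 0.77 ± 0.34 at 6 h (adjusted p = 0.0684). Of the 2 regulators tested, elt-2, the intestinal GATA factor needed for ftn-1 expression, rose at 1 h, when ftn-1 was lowest (0.56 ± 0.18, adjusted p = 0.0192), but not past the threshold with the longest bin alone (0.07, adjusted p = 0.889). daf-16 stood at 57.9 ± 16.7 CPM in starved larvae and 35.5 ± 5.31 at 6 h (-0.70 ± 0.22, adjusted p = 0.0155), and did not pass at 1 h (-0.51 ± 0.25, adjusted p = 0.124). Its starved and 6 h libraries overlapped. At 6 h daf-16 did not pass without starved replicate 2, nor without replicate 1 of 6 h. At 1 h it was called lower with upper-quartile factors, the replicate block, barcodes 1 to 8 and without starved replicate 3. At 3 h it was called lower under these same settings and under library totals.

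**Figure D5:**
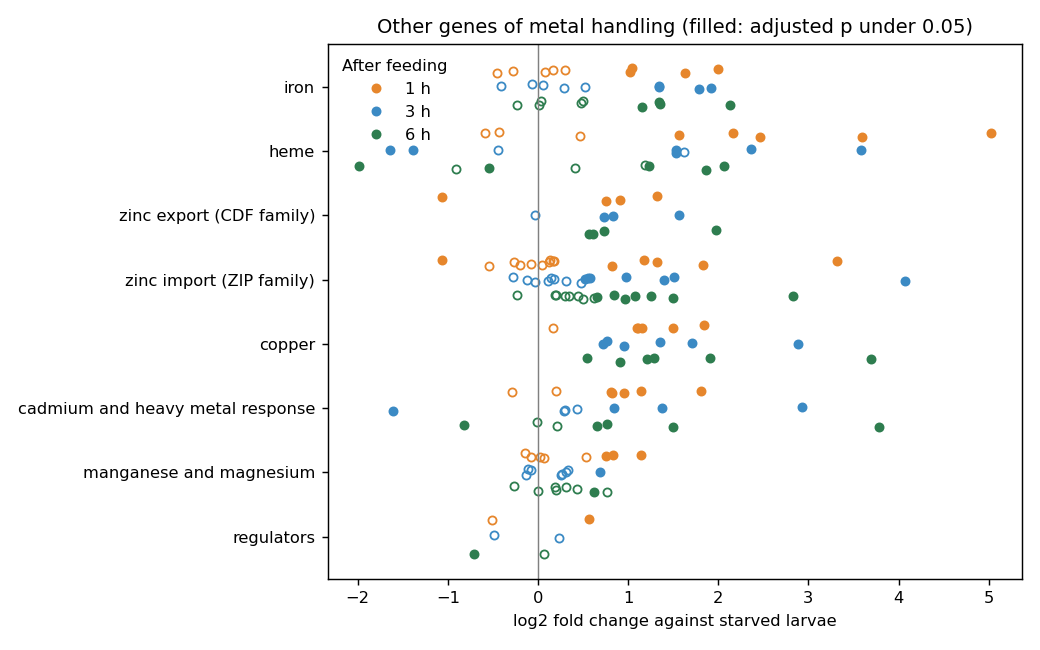
Log2 fold change against starved larvae (horizontal axis) of the 59 other metal genes tested, by function, at 1 h, 3 h and 6 h; filled points passed an adjusted p of 0.05. All 6 copper genes are filled and to the right of 0 at 3 h and 6 h, and the single point above 5 is hrg-4 at 1 h. The row for zinc import also holds hizr-1, a nuclear receptor gene.

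For each of the 8 counted genes the most similar profiles were sought among 9350 single genes that have a symbol and average at least 2 on the log2 CPM scale, by Pearson's r of log2 CPM over the 10 libraries. These are the highest of many values over the same libraries and are given as a description. The profile of ftn-1 was most like those of sid-5 (r = 0.979), Y47H10A.4 (0.973) and F42A8.1 (0.972). sid-5, a gene of systemic RNA interference, stood at 26.2 CPM in starved larvae and at 8.99, 13.1 and 18.6 at 1 h, 3 h and 6 h. For mtl-1 the closest were ddo-2 (0.987), ceh-79 (0.986) and dap-1 (0.986), the last at 1126 CPM in starved larvae and 101, 82.0 and 87.9 after feeding.

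The profile of ftn-2 was closest to tmed-1, clec-42 and F25H2.4 (each 0.991), that of cdr-1 to C01H6.4 (0.993), rrp-1 (0.988) and W08E12.7 (0.987), and that of ttm-1 to T19D12.4 (0.995), irg-3 (0.994) and C49C3.9 (0.985). The peak of smf-3 at 1 h was shared most closely by nac-3 (0.956), ttbk-7 (0.955) and F41E7.2 (0.953), with nac-3 at 43.8 CPM in the starved group, then 102 (1 h), 44.0 (3 h) and 34.1 (6 h). The flatter profiles of smf-1 and mtl-2 had weaker neighbours, mai-2 (0.928), W09D10.5 (0.926) and gpa-12 (0.919) for the first, and ceh-58 (0.919), mlc-4 (0.891) and ndx-4 (0.884) for the second.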

How the data were processed

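Messenger RNA of 10 libraries of whole larvae was sequenced on a SOLiD 4 instrument, per the labels. Reads were aligned by the authors with Bowtie 0.12.7, per the submitters' processing notes, and reads stripped of the 22 bp spliced leaders SL1 or SL2 were included, per the labels. The authors deposited unnormalized read counts for each exonic bin of WS210 gene models, per the file headers, and their strand setting is not given in the sources used. The deposited FPKM values and their intervals are the authors' estimates from Cufflinks 1.0.2, pooled over the libraries of a time, per the deposited notes. Counts were summed over the bins of a gene, so a read spanning several bins counts in each. Reads outside the bins, 8.35% to 11.4% of a library, were left out.

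Of 13374 gene units, filterByExpr kept 13226. They were tested with edgeR 4.0.16 under R 4.3.3, using TMM factors and a robust quasi-likelihood fit of 4 groups with 6 residual degrees of freedom. P-values were adjusted by Benjamini-Hochberg over all units, with a threshold of 0.05, and SEs were derived from the F statistic. The common biological coefficient of variation was 0.206. Bin use was tested with diffSpliceDGE. DESeq2 1.42.0 served as an alternative. Both edgeR procedures were tested on simulated data. No replicate pair agreed within sampling noise (chi-square per degree of freedom of 22.1 or more). The series states biological replicates without naming separate cultures. P-values therefore measure the spread between these libraries, which may be technical.

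The members and the gene lists were chosen with earlier results of these data known. Every member is named. Other metal genes are named where called with a 4-fold change or more, or as the largest change of their function at a time, and further genes of a function were named after their values were seen. For likeness, the 3 closest genes are named. Symbols were matched by sequence name, for 12916 of 13117 single genes. Sequences were not used here.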

Additional observations from a re-analysis of the deposited data

How the results depend on the processing

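The tests of gene levels were repeated with 7 alternatives and without each library in turn. The test of bin use was repeated likewise, but not with DESeq2 or the longest bin. Of the log2 fold changes of the 8 counted genes, 648 kept their direction and side of the threshold and 11 passed only under the alternative. In 4 cases the value no longer passed, and 17 changed sign. This tally leaves out the other metal genes, many of whose calls did not pass under some alternative. Examples are zipt-7.1 and sur-7 at 6 h under library totals. Without each library in turn, 0 to 2 of the 8 genes were called from 3 h to 6 h, beside 0.906% to 3.4% of all units, and bin use gave 0 calls. From 3 h to 6 h the count of 0 became 1 with the replicate block (4.27% of all units called), 2 with barcodes 1 to 8 (3.12%), 2 with DESeq2 (5.00%) and 2 without replicate 3 of 6 h (2.56%). With the longest bin alone, which holds fewer reads, 1 gene was called from 1 h to 3 h (5.39%). Of the other metal genes 19 and 18 were called at 1 h and 3 h in both directions together (27.7% and 30.2%), nearly all of them higher. The labels give no replicate numbers. Those used here follow the barcode order, so by design they pair no libraries. As a hint from the data, all 13 same-numbered pairs deviated together (r of 0.0766 to 0.330), 9 of them above 0.1, including the 3 pairs of starved and 6 h libraries (0.137 to 0.232). Deviations were taken from group means, so the libraries of a group with n = 2 mirror each other. The 13 pairs are therefore not 13 separate observations. A differently numbered pair, starved replicate 3 and 1 h replicate 1, reached 0.128. With the replicate block, the step of ftn-1 from 3 h to 6 h was 1.34 (adjusted p = 0.0051 by edgeR, and 0.0051 to 0.0219 over the 4 alternatives under which it passed).

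The values that changed sign were all of comparisons that were not called. Under library totals ftn-2 came to -0.0223 from 1 h to 3 h and -0.0154 from 3 h to 6 h, smf-1 to -0.0486 at 6 h and mtl-2 to -0.20 from 1 h to 3 h. Under the replicate block ftn-2 came to -0.0196 from 3 h to 6 h, and smf-1 and smf-3 to 0.0757 and 0.00189 at 3 h. With barcodes 1 to 8 smf-1 came to 0.0536 at 3 h. On the longest bin smf-1 came to 0.62 and 0.61 at 1 h and 3 h, with a step of -0.00437 between these times. Leaving out single libraries gave -0.0194 to 0.159 for ftn-2 from 3 h to 6 h, -0.153 to 0.0532 for smf-1 at 3 h, -0.178 to 0.0663 for smf-3 at 3 h, -0.787 to 0.0245 for mtl-2 at 1 h and -0.193 to 0.618 for mtl-2 from 1 h to 3 h. smf-1 at 1 h was -0.66 with upper-quartile factors, -0.65 without starved replicate 2 and -0.54 with DESeq2. The cause of these shifts was not tested. Library totals moved the median of all units to 0.11, -0.26 and -0.37 at 1 h, 3 h and 6 h, and upper-quartile factors to -0.13, -0.16 and -0.24. Depth limits mtl-1 in fed larvae (6 to 43 counts), cdr-1 in starved larvae (11 to 21 counts) and smf-2 throughout.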
